A study of Mus musculus with 9 samples.

Results

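The 10 genes described here are the core circadian clock genes of the mouse, taken by symbol from a table of 22322 genes: Arntl, Clock, Per1, Per2, Per3, Cry1, Cry2, Nr1d1, Nr1d2 and Dbp. All 10 were found, and all 10 passed the low-count filter that left 12145 genes to be tested. Their RNA was measured in 9 libraries of cultured wild-type mouse cells sold and labelled as retinal ganglion cells (RGCs), the neurons whose axons form the optic nerve. Normal RGCs (3 libraries) received neither D-galactose nor conditioned medium. Aging RGCs (3 libraries) were treated with D-galactose, a sugar used to induce a senescent state in culture, and aging RGCs + USCs medium (3 libraries) were treated with D-galactose and kept in medium conditioned by human urine-derived stem cells (USCs), with the USCs themselves removed; they are called the medium group below. The purchased cells of all groups were grown in high-glucose medium with serum, while the USCs were cultured in a special medium for urine stem cells. No sequenced group received that medium unconditioned. Ingredients of the USCs' medium and products of the USCs therefore cannot be told apart in the medium group. Neither the hour at which RNA was collected nor the time since the last medium change is stated in the sources used here, each library is 1 point in time, and no rhythm was measured. The libraries of a group are replicate wells, so the p-values measure the spread between wells.

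The clock is a feedback loop of transcription that runs in nearly every cell of the body, including cells of the retina. ARNTL (also called BMAL1) and CLOCK bind DNA as a pair at E-boxes and switch on the Per and Cry genes, whose proteins gather, enter the nucleus and hold the pair back. A further loop runs through Nr1d1 and Nr1d2, nuclear receptors (REV-ERB alpha and beta) that silence Arntl at ROR elements. Dbp is a direct output of the loop, and its protein acts on other genes through D-boxes. In cultured cells the loops of single cells drift apart unless serum, a glucocorticoid hormone or another signal sets them together.

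The letters of these elements were searched on both strands in RefSeq promoter windows of build GRCm38.p6. A window ran from 250 bases before to 50 bases after a RefSeq start of the gene. The table held 13 windows for 9 of the genes, and none for Per2. The E-box CACGTG was found in 2 of the 13 windows, 1 of Per1 and 1 of Cry1, and 7.15% of all 32851 windows held it. The windows of the other genes, Nr1d1 and Dbp among them, held none. The D-box, TTATGTAA or TTACGTAA, was found in 1 of the 13 windows, that of Per3, with 2 matches, against 1.06% of all windows. The ROR element core, TAGGTCA or TGGGTCA, was found in 1 of the 13 windows, a window of Arntl, against 6.45% of all windows. The CRE TGACGTCA was found in 0 of them, against 1.79%. The 4 stretches are printed because they hold the letters through which the members are known to act on each other, with the matched letters in capitals. Each is written 5′ to 3′ on the strand of its gene, and no motif overlapped another. The stretch of Per1 is at chr11:69098743-69098828 on the plus strand, with the match beginning 166 bases before the RefSeq start of its window. That start lies within the span of the gene given below, and the other Per1 window held no E-box. That of Per3 is at chr4:151044776-151044910 on the minus strand, with matches beginning 205 and 158 bases before the start. That of Cry1 is at chr10:85185069-85185154 on the minus strand, with its match beginning 60 bases before the start, and that of Arntl is at chr7:113207530-113207558 on the plus strand, 30 bases past the start. A match is a description of the letters and was not tested as a binding site.
Per1: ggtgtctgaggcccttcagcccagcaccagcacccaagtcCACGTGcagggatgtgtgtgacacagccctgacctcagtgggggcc
Per3: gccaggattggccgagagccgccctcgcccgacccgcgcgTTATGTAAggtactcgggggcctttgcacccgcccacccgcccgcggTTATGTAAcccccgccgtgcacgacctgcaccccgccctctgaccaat
Cry1: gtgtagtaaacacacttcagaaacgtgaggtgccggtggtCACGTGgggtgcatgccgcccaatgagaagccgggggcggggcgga
Arntl: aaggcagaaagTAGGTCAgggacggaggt

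Library totals ran from 18189610 to 22342283 expected counts, which are the estimated numbers of reads per gene. Levels of a gene between libraries are given as CPM, its counts relative to the library total times edgeR's TMM factor. The 12145 genes were fitted together with edgeR's quasi-likelihood test, p-values were adjusted by the method of Benjamini and Hochberg, and a gene was called higher or lower at an adjusted p under 0.05. Between aging and normal RGCs, 23.6% of all genes tested were called higher and 23.0% lower. The shares were 27.1% and 26.0% for the medium group against aging RGCs, and 30.6% and 29.9% against normal RGCs. Without TMM factors the last 2 comparisons leaned to lower levels, with 2346 genes higher and 4199 lower against aging RGCs, and 2593 higher and 4889 lower against normal RGCs. The comparisons share libraries, so they are not independent of each other.

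Of markers of retinal ganglion cells, 3 of 11 (Rbpms, Nefl and Isl1) had at least 10 counts in every library. The defining factors Pou4f2 and Pou4f3 were at 0 in all 9, and Thy1 and Nefh had at most 1 count. The 11 markers summed to 139 to 150 CPM in normal RGCs, to 99.2 to 103 CPM in the aging group and to 75.4 to 83.5 CPM in the medium group. Of 8 macrophage markers 6 were tested, and the list summed to 58.0 to 68.6 CPM in normal RGCs, 44.4 to 50.7 CPM in the aging group and 30.6 to 53.2 CPM in the medium group, where replicate 3 was the highest. Most of that sum was Cd68, at means of 38.6, 41.5 and 31.3 CPM. Other members lay farther apart: Lyz2 had 210 to 522 counts in normal libraries, 23 to 118 in aging libraries, and 45, 20 and 241 in the medium libraries, and Adgre1 had 19 to 57, 0 to 2, and 2, 2 and 32 counts. Lyz2, Adgre1, Csf1r and C1qb were called lower in aging than in normal RGCs. The complement genes C1qa, C1qb and C1qc together had 19 to 34 counts in normal RGCs and 0 in aging RGCs, and 31 counts in replicate 3 of the medium group against 0 in its replicates 1 and 2. None of 7 photoreceptor markers reached the level for testing.

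Of 5 epithelial markers 4 were tested, and all 5 summed to 1047 to 1141 CPM in normal RGCs, 1077 to 1103 CPM in the aging group and 1236 to 1285 CPM with the medium. Nearly all of that sum was the keratin genes Krt8, Krt18 and Krt19. Epcam had 26 to 56 counts per library, and Cdh1, which was not tested, had 0 to 5. Within that list, Krt8 was called higher in aging than in normal RGCs (560 against 410 CPM), and Krt18 (252 against 321 CPM) and Krt19 (274 against 365 CPM) were called lower. In the medium group Krt8 was at 714 CPM, Krt18 at 281 CPM and Krt19 at 258 CPM. Of 5 mesenchymal markers 3 were tested, and the list summed to 293 to 316, 290 to 347 and 183 to 193 CPM in the order normal, aging and medium, most of it S100a4 at means of 284, 310 and 180 CPM. S100a4 was called higher in aging than in normal RGCs, and Col1a1 (7.99 against 14.7 CPM) and Pdgfrb (2.86 against 4.90 CPM) were called lower. Of 6 markers of Mueller glia and astrocytes 2 were tested, and the sum was 1759 to 1854, 2059 to 2130 and 2025 to 2165 CPM, nearly all of it Vim. Vim was called higher in aging than in normal RGCs (2006 against 1695 CPM), and Glul was called higher in the medium group (128 CPM) than in aging RGCs (95.9 CPM). The part of these differences in the levels of the clock genes was not tested, and in bulk RNA fewer cells of a type and less RNA per cell cannot be told apart.

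All 10 genes were read in all 9 libraries, at levels that spanned a wide range. FPKM, the authors' value per transcript length and library size, allows genes to be set beside each other. In normal RGCs, Arntl was the highest at 26.5 ± 0.993 FPKM (SD, n = 3), ahead of Per1 at 13.1 ± 1.28 and Clock at 11.3 ± 0.170. Nr1d2 at 6.003 ± 0.169, Cry1 at 5.72 ± 0.479 and Nr1d1 at 4.42 ± 0.364 FPKM followed, and the values of Nr1d2 and Cry1 overlapped. Cry2 at 2.1 ± 0.199, Dbp at 1.22 ± 0.250, Per2 at 0.657 ± 0.0907 and Per3 at 0.563 ± 0.0404 FPKM closed the order, with overlap between Per2 and Per3. The activator Arntl thus had the most RNA for its length in normal cells, and Per2 and Per3 the least.

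In aging RGCs the order began with Arntl at 19.3 ± 0.307 FPKM, Clock at 11.98 ± 0.329 and Per1 at 10.1 ± 1.63, and Clock and Per1 overlapped. It went on with Cry1 at 6.03 ± 0.0757, Nr1d1 at 5.24 ± 0.551, Nr1d2 at 5.06 ± 0.505, Dbp at 2.00 ± 0.101, Cry2 at 1.69 ± 0.0493, Per2 at 0.850 ± 0.0529 and Per3 at 0.720 ± 0.0872 FPKM, with overlap between Nr1d1 and Nr1d2. In the medium group, Per1 at 23.6 ± 2.46 FPKM stood beside Arntl at 21.6 ± 0.420, and the values of the 2 genes overlapped. Clock at 13.5 ± 0.287, Cry1 at 9.83 ± 0.980, Nr1d1 at 2.63 ± 0.575, Nr1d2 at 2.27 ± 0.136, Cry2 at 1.68 ± 0.297, Dbp at 1.31 ± 0.211, Per2 at 0.833 ± 0.137 and Per3 at 0.317 ± 0.0404 FPKM followed. There, Nr1d1 overlapped with Nr1d2 and Cry2 with Dbp.

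**Figure D1:**
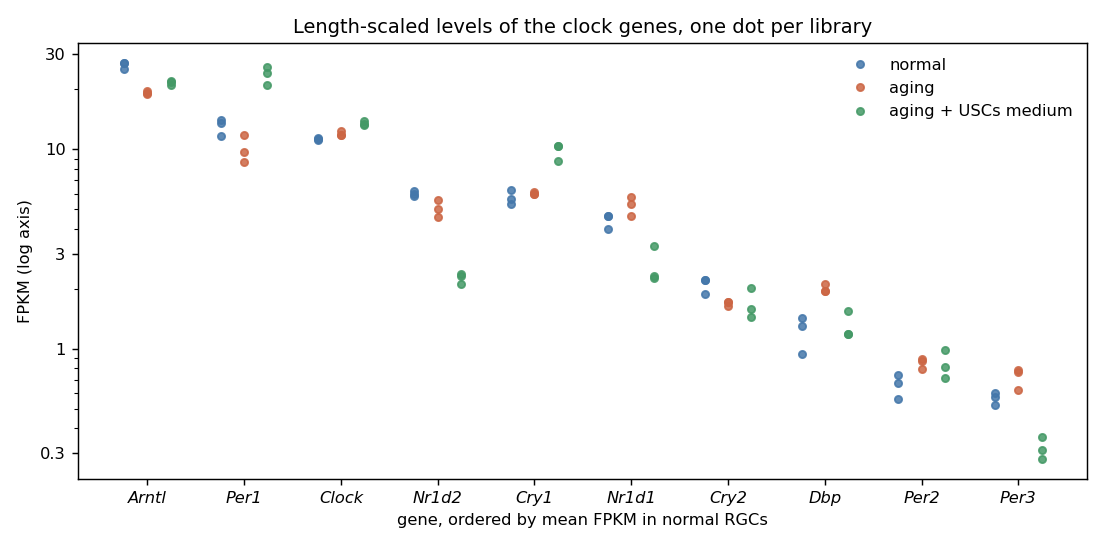
FPKM of the 10 clock genes on a log axis, with 1 dot per library and genes ordered by their mean in normal RGCs. Arntl led in normal RGCs at 26.5 FPKM and Per3 was last at 0.563 FPKM, and in the medium group Per1 stood as high as Arntl.

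Between aging and normal RGCs, 1 of the 10 clock genes was called higher and 3 lower, and 6 did not pass the test. Of all genes tested, 23.6% were called higher and 23.0% lower. The higher call was thus below the share over all genes, and the lower calls were close to it. Dbp, the output gene, rose 1.81-fold, while the activator Arntl fell by 26.5%, the repressor Per1 fell by 18.9% and the receptor gene Nr1d2 fell by 18.7%. With USCs medium, 4 of 10 were higher than in aging RGCs (Per1, Cry1, Arntl and Clock) and 4 were lower (Per3, Nr1d1, Nr1d2 and Dbp). The shares over all genes were 27.1% and 26.0%. Against normal RGCs, the medium group had 4 genes higher (Per1, Per2, Cry1 and Clock) and 5 lower (Per3, Cry2, Arntl, Nr1d1 and Nr1d2). Here the shares over all genes were 30.6% and 29.9%. The median absolute log2 fold change of the 10 genes was 0.30 between aging and normal RGCs, 0.70 with the medium against aging RGCs and 0.55 with the medium against normal RGCs. Over all genes tested it was 0.18, 0.21 and 0.25. The 10 genes moved in both directions, and their median log2 fold change was 0.10, -0.01 and 0.03 beside 0.00, -0.01 and -0.01 over all genes.

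The 3 values of each group did not overlap for 9 of the 10 genes between aging and normal RGCs, against 53.0% of all genes tested. The count was 8 of 10 for the medium against aging RGCs, against 59.8%, and 8 of 10 for the medium against normal RGCs, against 63.8%. At a change of at least 2-fold together with the adjusted p, 0 clock genes were called between aging and normal RGCs (2.65% of all genes), 2 between the medium and aging RGCs (Per1 and Per3, against 5.44%) and 1 between the medium and normal RGCs (Nr1d2, against 6.72%).

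**Figure D2:**
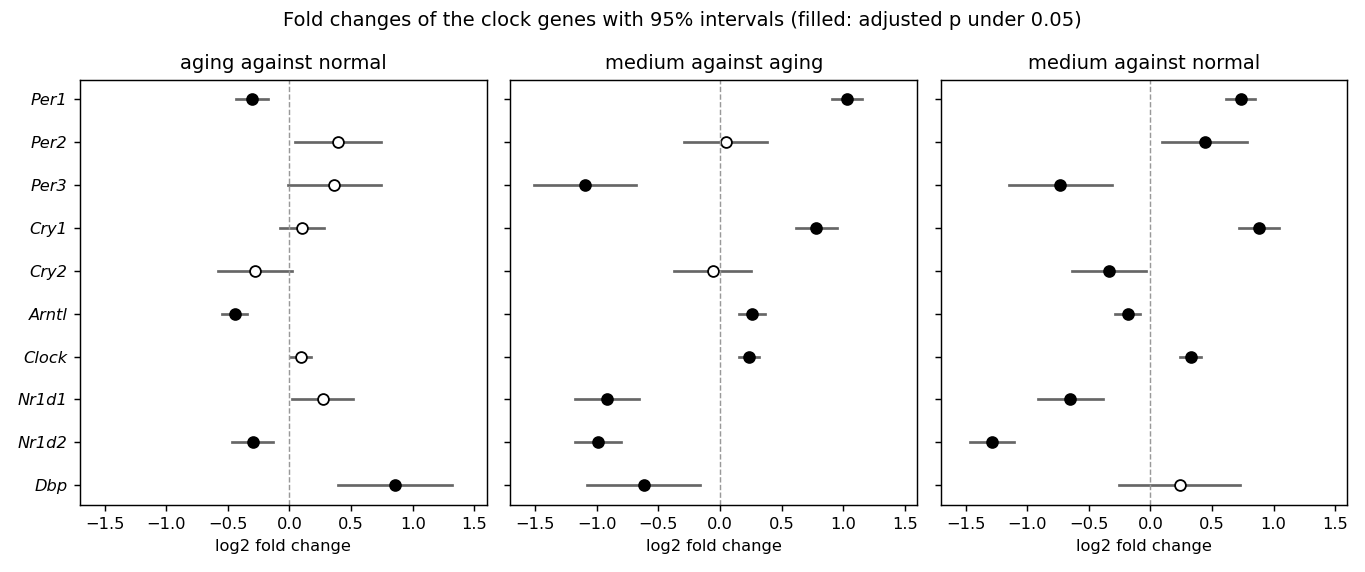
Log2 fold changes of the 10 clock genes in the 3 comparisons with 95% intervals, as filled circles where the adjusted p was under 0.05. With the medium against aging RGCs, Per1 (1.03) and Cry1 (0.78) lay farthest to the right and Per3 (-1.10), Nr1d2 (-0.99) and Nr1d1 (-0.92) farthest to the left.

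Arntl (ENSMUSG00000055116, chr7:113207465-113314126, plus strand, GRCm38) encodes the partner of CLOCK whose loss stops the mouse clock. Its level was 69.4, 74.1 and 75.0 CPM in normal RGCs, 52.1, 53.2 and 55.2 CPM in aging RGCs, and 64.5, 65.6 and 62.1 CPM in the medium group. The 3 groups did not overlap: normal RGCs were highest, aging RGCs lowest, and every medium library lay between them. In the edgeR fit the log2 fold change of aging against normal RGCs was -0.44 ± 0.0491 (SE, adjusted p = 1.89e-08). It was 0.26 ± 0.0499 for the medium against aging RGCs (adjusted p = 7.24e-05) and -0.18 ± 0.0480 for the medium against normal RGCs (adjusted p = 0.00157).

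Clock (ENSMUSG00000029238, chr5:76209868-76304792, minus strand) encodes the other partner of the activating pair. Normal RGCs had 83.1, 84.8 and 86.0 CPM, aging RGCs 89.8, 92.2 and 88.3 CPM, and the medium group 109, 105 and 105 CPM. All medium libraries were above all others, and the aging libraries were above the normal ones by a margin that did not pass the test. A log2 fold change of 0.24 ± 0.0409 was found for the medium against aging RGCs (adjusted p = 1.86e-05) and of 0.33 ± 0.0408 against normal RGCs (edgeR, adjusted p = 6.91e-08). Aging and normal RGCs differed by 0.09, with an unadjusted 95% interval of 0.0065 to 0.18 and an adjusted p of 0.0719. With the medium, then, both partners of the pair were above their level in aging RGCs, Clock also above and Arntl below the level in normal RGCs.

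Per1 (ENSMUSG00000020893, chr11:69095217-69109960, plus strand) encodes a repressor of the loop and is known as a gene that light, serum and glucocorticoids induce quickly. It had 46.5, 47.3 and 41.4 CPM in normal RGCs, 33.1, 37.2 and 39.2 CPM in aging RGCs, and 74.4, 76.5 and 73.7 CPM in the medium group. The groups were apart in every library, and the medium group held the highest values. Against aging RGCs the medium group was 2.05-fold higher, a log2 fold change of 1.03 ± 0.0600 (edgeR, adjusted p = 2.83e-14), and against normal RGCs it was higher by 0.73 ± 0.0579 (adjusted p = 1.11e-11). Aging RGCs were below normal RGCs by a log2 fold change of -0.30 ± 0.0623 (adjusted p = 0.000214). A window of the gene holds the first E-box stretch printed above, and its other window holds none.

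Per3 (ENSMUSG00000028957, chr4:151003652-151044665, minus strand), a paralogue of Per1 and a known target of DBP and related factors, behaved otherwise. It had 3.34, 3.00 and 3.36 CPM in normal RGCs, 4.43, 3.66 and 4.41 CPM in aging RGCs, and 2.21, 1.89 and 1.74 CPM in the medium group. These levels rest on 34 to 87 counts per library. The medium libraries were below all others, and against aging RGCs the level fell by 53.2%. This was a log2 fold change of -1.10 ± 0.201 for the medium against aging RGCs (edgeR, adjusted p = 3.99e-05) and -0.73 ± 0.205 against normal RGCs (adjusted p = 0.00297). The value for aging against normal RGCs was 0.36, with an unadjusted 95% interval of -0.014 to 0.74 and an adjusted p of 0.109. On the log2(FPKM + 1) scale, which shrinks low genes, the difference between the medium and aging RGCs was -0.38. Its window holds the 2 D-box matches printed above.

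Per2 (ENSMUSG00000055866, chr1:91415982-91459324, minus strand), the Per gene whose protein is central to the timing of the loop, was low throughout. Normal RGCs had 3.77, 3.20 and 4.19 CPM, aging RGCs 4.98, 4.53 and 5.16 CPM, and the medium group 4.32, 4.91 and 5.94 CPM, from 66 to 116 counts. The D-galactose groups overlapped each other and lay above the normal libraries. Against normal RGCs the medium group gave a log2 fold change of 0.44 ± 0.168 (edgeR, adjusted p = 0.0248). That call was lost with DESeq2 (adjusted p = 0.0601), without TMM factors, on the FPKM scales, and without normal replicate 2 or medium replicate 3, where the log2 fold change was 0.35 and 0.31, and over 19 alternatives the adjusted p ran from 0.0133 to 0.162. Aging RGCs differed from normal RGCs by 0.39 (adjusted p = 0.0576, unadjusted 95% interval 0.047 to 0.74), and it passed the test by the likelihood ratio test (adjusted p = 0.0420) and without normal replicate 3 (0.0462), within a range of 0.0420 to 0.204. For the medium against aging RGCs it was 0.05, with an interval of -0.29 to 0.38 and an adjusted p of 0.830.

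Cry1 (ENSMUSG00000020038, chr10:85131700-85185064, minus strand) encodes the strongest repressor of the ARNTL and CLOCK pair. It had 16.4, 15.6 and 18.5 CPM in normal RGCs, 17.8, 17.9 and 18.3 CPM in aging RGCs, and 27.5, 33.0 and 32.5 CPM in the medium group. Normal and aging RGCs overlapped, and each medium library stood well above both. The medium group was 1.72-fold higher than aging RGCs, a log2 fold change of 0.78 ± 0.0810 (edgeR, adjusted p = 3.83e-09), and 1.84-fold higher than normal RGCs, 0.88 ± 0.0807 (adjusted p = 2.04e-10). Aging against normal RGCs gave 0.10, with a 95% interval of -0.076 to 0.28 and an adjusted p of 0.362. Its window holds the other E-box stretch printed above. Clock, whose 3 windows hold no CACGTG, also had its highest values in the medium libraries. Whether the matches bear on these levels was not tested.

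Cry2 (ENSMUSG00000068742, chr2:92403646-92434043, minus strand), the other cryptochrome, had 8.10, 8.48 and 6.46 CPM in normal RGCs, 6.38, 6.28 and 6.38 CPM in aging RGCs, and 7.45, 4.91 and 5.94 CPM in the medium group. The medium libraries overlapped with both other groups. The medium against normal RGCs gave a log2 fold change of -0.34 ± 0.147 (edgeR, adjusted p = 0.0497), and this call was lost in 11 of 19 alternatives, among them DESeq2 (adjusted p = 0.121), the fit of only these groups (0.0688) and the fits without normal replicate 1 (0.134) or 2 (0.160), any aging replicate (0.0534 to 0.0569), or medium replicate 2 (0.275) or 3 (0.106). Without medium replicate 2 the value was -0.20. Aging against normal RGCs gave -0.28 (adjusted p = 0.125, interval -0.58 to 0.023). It passed the test without normal replicate 3 (-0.39, adjusted p = 0.0450), and its adjusted p otherwise reached up to 0.313. For the medium against aging RGCs it was -0.06 (adjusted p = 0.769, interval -0.37 to 0.25).

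**Figure D3:**
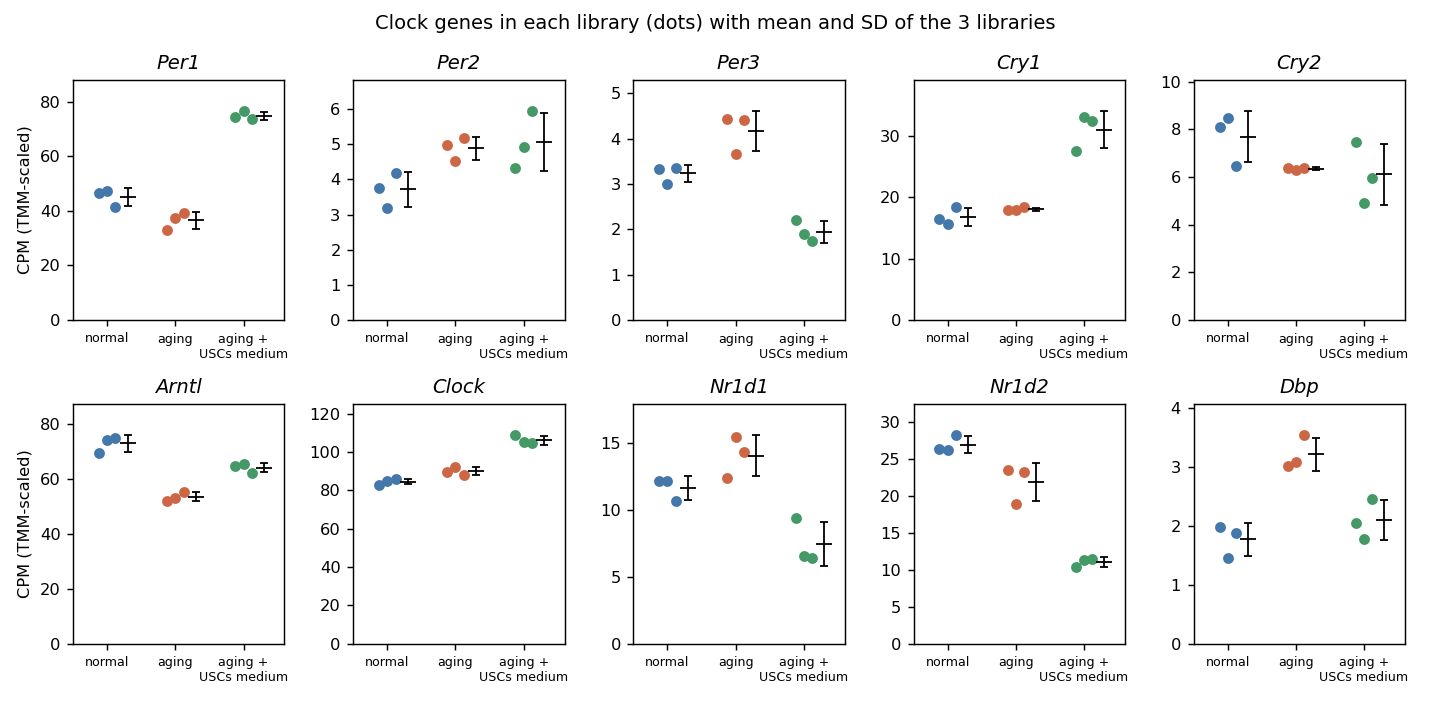
CPM of each clock gene in each library (dots) with the mean and SD of the 3 libraries of a group; every axis begins at 0. Per1 and Cry1 were highest in the medium group, at means of 74.9 and 31.0 CPM, and Nr1d2 was lowest there at 11.1 CPM.

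Nr1d2 (ENSMUSG00000021775, chr14:18204054-18239127, minus strand) encodes REV-ERB beta, a repressor of Arntl, and had the widest range of the 10 genes, 1.28 between its highest and lowest log2 group means. It had 26.4, 26.2 and 28.2 CPM in normal RGCs, 23.5, 19.0 and 23.3 CPM in aging RGCs, and 10.3, 11.3 and 11.5 CPM in the medium group. The groups did not overlap, and the medium libraries held the lowest values. With the medium the log2 fold change was -0.99 ± 0.0910 against aging RGCs (edgeR, adjusted p = 4.45e-10) and -1.28 ± 0.0882 against normal RGCs (adjusted p = 5.92e-13). For aging against normal RGCs it was -0.30 ± 0.0807 (adjusted p = 0.00323), a call that was lost on the log2(FPKM + 1) and log2(FPKM + 0.1) scales (adjusted p = 0.0528 and 0.0682), where the lowest adjusted p over 19 alternatives was 0.000909.

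Nr1d1 (ENSMUSG00000020889, chr11:98767932-98775333, minus strand) encodes REV-ERB alpha. Normal RGCs had 12.2, 12.2 and 10.7 CPM, aging RGCs 12.4, 15.5 and 14.4 CPM, and the medium group 9.40, 6.60 and 6.40 CPM. The medium libraries were below all others, with replicate 1 the highest of them. The medium group differed by a log2 fold change of -0.92 ± 0.128 from aging RGCs (edgeR, adjusted p = 6.84e-07) and of -0.65 ± 0.129 from normal RGCs (adjusted p = 8.40e-05). For aging against normal RGCs it was 0.27 (adjusted p = 0.0664, unadjusted 95% interval 0.024 to 0.51). That difference passed the test with no low-count filter (adjusted p = 0.0378), in the fit of only these groups (0.0437), and without aging replicate 1 (0.0331) or medium replicate 1 (0.0412), and over 19 alternatives its adjusted p ran to 0.264. Both REV-ERB genes thus had their lowest levels with the medium.

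Dbp (ENSMUSG00000059824, chr7:45705088-45710203, plus strand) encodes a transcription factor that carries the rhythm to its target genes. It had 1.99, 1.45 and 1.87 CPM in normal RGCs, 3.03, 3.09 and 3.54 CPM in aging RGCs, and 2.05, 1.79 and 2.46 CPM in the medium group, from 30 to 70 counts. The aging libraries were above all others, and the normal and medium libraries overlapped. Aging RGCs exceeded normal RGCs by a log2 fold change of 0.86 ± 0.227 (edgeR, adjusted p = 0.00269), and that of the medium against aging RGCs was -0.62 ± 0.224 (adjusted p = 0.0218). The latter was lost with DESeq2 (adjusted p = 0.0611) and without aging replicate 3 (0.0929), medium replicate 1 (0.0570) or medium replicate 2 (0.101), the lowest over 19 alternatives being 0.00864. For the medium against normal RGCs it was 0.24 (adjusted p = 0.402, interval -0.25 to 0.73).

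Exons of 4 clock genes share bases with a gene on the opposite strand in the GENCODE M21 annotation, and the sources do not state whether reads were counted by strand. Nr1d1 shares 263 bases, 8.55% of its exonic bases, with Thra, the thyroid hormone receptor alpha gene, and Dbp shares 539 bases, 18% of its own, with Sphk2, a sphingosine kinase gene. Cry2 shares 295 bases (4.67%) and Arntl 33 bases (0.439%) with non-coding genes that were not analysed here. The deposited counts of Nr1d1 and Dbp carried decimals in 9 of 9 libraries and those of the other 8 genes in 0. The deposited counts of Nr1d1 and Thra added up to a whole number in all 9 libraries. In normal replicate 1 they were 282.46 and 1409.54. Those of Dbp and Sphk2 did so in some libraries, as with 69.65 and 335.35 in aging replicate 3. In others they did not, as with 45.82 and 485.66 in normal replicate 1. Thra averaged 63.0 CPM in normal, 67.1 CPM in aging and 59.4 CPM in medium libraries, and Sphk2 21.4, 17.0 and 19.2 CPM. Sphk2 was lower in aging than in normal RGCs by a log2 fold change of -0.33 (edgeR, adjusted p = 0.000745), where Dbp was higher. Thra was lower with the medium than in aging RGCs by -0.18 (adjusted p = 0.00541), where Nr1d1 was lower too. In mean CPM, Thra went from 67.1 to 59.4 and Nr1d1 from 14.1 to 7.47. Whether reads shared or divided between overlapping genes bear on the levels of Dbp and Nr1d1 was not tested.

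Dbp and Nr1d1, which ARNTL and CLOCK switch on, were also set against Arntl within each library by their FPKM. Dbp was at 5.60%, 3.47% and 4.80% of Arntl in normal RGCs, at 10.2%, 10.2% and 10.8% in aging RGCs, and at 5.44%, 5.42% and 7.34% in the medium group. The aging libraries were above all others. Nr1d1 was at 18.3%, 17.0% and 14.8% of Arntl in normal RGCs, at 24.4%, 30.1% and 27.2% in aging RGCs, and at 15.2%, 10.6% and 10.7% in the medium group. Here again the aging libraries stood above the rest, and the normal and medium groups overlapped by 1 library. Both ratios also rise where Arntl falls, and Arntl was 26.5% lower in aging than in normal RGCs. By itself, Dbp was called higher there (log2 fold change 0.86, edgeR, adjusted p = 0.00269) and Nr1d1 was not called (0.27, adjusted p = 0.0664). These ratios are a description and were not tested.

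**Figure D4:**
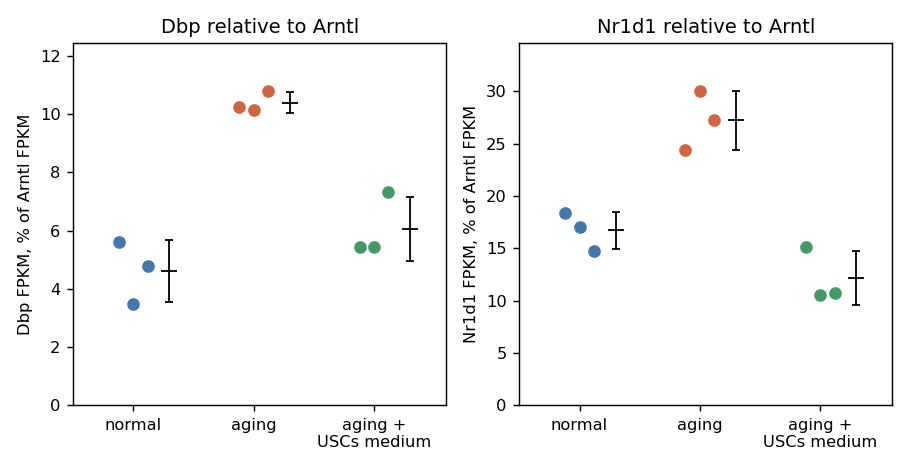
FPKM of Dbp (left) and Nr1d1 (right) as a percentage of the FPKM of Arntl in the same library, with 1 dot per library and the mean and SD of a group. Means in aging RGCs were 10.4% for Dbp and 27.2% for Nr1d1, above 4.62% and 16.7% in normal RGCs and 6.07% and 12.2% in the medium group. Arntl itself was 26.5% lower in aging than in normal RGCs.

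Of 19 other clock regulators, all tested, 4 were called higher and 9 lower in aging than in normal RGCs, beside 23.6% and 23.0% of all genes tested, so that the higher calls were close to the share over all genes. Among them, Npas2, which can stand in for Clock, was at 5.30 CPM in normal and 2.73 CPM in aging RGCs (log2 fold change -0.96, edgeR, adjusted p = 0.000203). Nfil3, the repressor that competes with DBP at D-boxes, went from 45.4 to 47.0 CPM in normal RGCs down to 23.1 to 26.3 CPM in aging RGCs (-0.90, adjusted p = 1.30e-12). Tef, a relative of Dbp, rose from a mean of 25.1 to 35.3 CPM (0.49, adjusted p = 1.12e-06), and Bhlhe41, a repressor at E-boxes, from 4.08 to 7.38 CPM (0.86, adjusted p = 3.10e-05). Csnk1e, a kinase that marks PER proteins for breakdown, fell from 142 to 88.3 CPM (-0.68, adjusted p = 2.36e-13), and Fbxl21, an adaptor of a ligase that acts on CRY proteins, from 4.22 to 2.84 CPM (-0.57, adjusted p = 0.0155). Its relative Csnk1d, at 207 CPM in normal and 200 CPM in aging RGCs, was not called in any comparison (here -0.05, edgeR, adjusted p = 0.266). A further relative, Csnk1a1, was lower by -0.16 (adjusted p = 0.000349). Dbp and Tef, which share the D-box, were thus called higher in aging RGCs while their competitor Nfil3 was called lower. Hlf, another relative of Dbp, was not called here (log2 fold change 1.18, edgeR, adjusted p = 0.108), and neither was Per3 (0.36, adjusted p = 0.109). The call of Bhlhe41 was lost on the log2(FPKM + 1) and log2(FPKM + 0.1) scales (adjusted p = 0.153 and 0.215, lowest over 19 alternatives 1.43e-07), and that of Fbxl21 without normal replicate 2 (0.0997).

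With the medium against aging RGCs, 6 of the 19 regulators were higher and 5 lower, beside 27.1% and 26.0% of all genes, shares close to those of the list. Nfil3 reached a mean of 36.3 CPM (log2 fold change 0.56, edgeR, adjusted p = 2.08e-08), Csnk1e 129 CPM (0.54, adjusted p = 2.60e-11) and Bhlhe40, another repressor at E-boxes, 63.4 CPM from 44.3 CPM (0.52, adjusted p = 3.97e-08). Tef fell to 23.0 CPM (-0.62, adjusted p = 2.09e-08) and Bhlhe41 to 4.10 CPM (-0.85, adjusted p = 3.15e-05). Rora, an activator of Arntl at ROR elements, went from 1.44 to 0.540 CPM (-1.40, adjusted p = 0.00377), in aging libraries of 24 to 31 counts and medium libraries of 4 to 16. Over 19 alternatives its log2 fold change ran from -1.82 to -0.27, and the call was kept. Hlf, the remaining relative of Dbp, went from 0.606 to 0.166 CPM (-1.81, adjusted p = 0.0234) in aging libraries of 10 to 14 counts and medium libraries of 0 to 8. Against normal RGCs, 2 regulators were higher and 9 lower with the medium, beside 30.6% and 29.9% of all genes. Bhlhe40 rose (0.68, adjusted p = 1.29e-10), and Npas2 (-1.11, adjusted p = 2.23e-05), Rora (-1.73, adjusted p = 0.000271) and Rorb (-0.61, adjusted p = 0.0223) fell. Among these calls 2 depended on the setting: that of Hlf was lost in 6 of 18 alternatives, among them those without aging replicate 3 or medium replicate 1 or 3, and that of Rorb in 5 of 19, among them those without normal replicate 2 or medium replicate 2, with adjusted p up to 0.164 and 0.152. The median log2 fold change of the list was -0.16 between aging and normal RGCs, 0.02 with the medium against aging RGCs and -0.14 against normal RGCs.

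Of 9 output genes of the clock, 7 were tested, and Avp and Prok2, signals of the brain's clock, had 0 counts. In aging against normal RGCs 5 were higher and 1 lower, beside 23.6% and 23.0% of all genes, with a median log2 fold change of 0.36 against 0.00 over all genes. Klf9, a transcription factor that also answers to glucocorticoids, fell from 49.2 to 32.4 CPM (-0.60, edgeR, adjusted p = 6.36e-10). With the medium against aging RGCs 4 were higher and 2 lower, beside 27.1% and 26.0% of all genes, with a median of 0.17 against -0.01. Klf9 was then at 63.8 CPM (0.98, adjusted p = 1.21e-14) and the ubiquitin protease Usp2 at 2.32 CPM, from 0.949 CPM in aging RGCs (1.28, adjusted p = 0.000698). Alas1, the first enzyme of haem synthesis, fell from 65.3 to 46.1 CPM (-0.50, adjusted p = 3.49e-09). Against normal RGCs 5 were higher and 2 lower, beside 30.6% and 29.9% of all genes, with a median of 0.38 against -0.01, among them Nampt, the enzyme that salvages NAD, at 237 CPM from 155 CPM (0.62, adjusted p = 1.14e-14), the cell cycle kinase Wee1 (0.60, adjusted p = 4.13e-08) and Usp2 (1.13, adjusted p = 0.00137).

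A further list held 13 genes tied to the signals that reset a clock, namely serum, cAMP and glucocorticoids, some as carriers of the signal and some as its targets, and all 13 were tested. In aging against normal RGCs 1 was higher and 5 lower, beside 23.6% and 23.0% of all genes, with a median log2 fold change of -0.13 against 0.00. Tsc22d3, a glucocorticoid target also called GILZ, had 25.7, 25.2 and 24.8 CPM in normal RGCs, 12.8, 11.7 and 11.7 CPM in aging RGCs, and 41.9, 46.1 and 43.0 CPM in the medium group. The 3 groups were far apart, with log2 fold changes of -1.07 for aging against normal RGCs (edgeR, adjusted p = 3.18e-12), 1.86 for the medium against aging RGCs (adjusted p = 4.39e-18) and 0.79 against normal RGCs (adjusted p = 1.84e-11). The immediate early genes Egr1 and Fos, which growth factors in serum induce, had log2 fold changes of -1.02 (adjusted p = 5.66e-11) and -0.51 (adjusted p = 0.0449) in aging against normal RGCs. The call of Fos was lost in 7 of 19 alternatives, among them DESeq2 (adjusted p = 0.0956), the fit of only these groups, and the fits without normal replicate 1 (0.223), any aging replicate or medium replicate 3.

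With the medium against aging RGCs 7 of the 13 were higher and 3 lower, beside 27.1% and 26.0% of all genes, with a median of 0.24 against -0.01, and the lower calls were close to the share over all genes. Beside Tsc22d3, Fkbp5, another glucocorticoid target, was at 208 CPM against 127 CPM (log2 fold change 0.71, edgeR, adjusted p = 1.87e-13), while Nr3c1, the glucocorticoid receptor gene, was lower (-0.35, adjusted p = 2.27e-08). Fos rose by 1.05 (adjusted p = 6.56e-05) and Egr1 by 0.51 (adjusted p = 1.54e-05). Against normal RGCs 4 were higher and 4 lower, beside 30.6% and 29.9% of all genes, with a median of -0.04 against -0.01. Fkbp5 (0.63, adjusted p = 1.28e-12) and Fos (0.54, adjusted p = 0.0144, lost without normal replicate 3 or medium replicate 2 and on the log2(FPKM + 0.1) scale, at up to 0.116) were higher there and Egr1 was lower (-0.51, adjusted p = 2.64e-06). Fkbp5 did not pass the test between aging and normal RGCs, at 127 against 135 CPM (log2 fold change -0.09, adjusted p = 0.128), and its libraries overlapped there. Whether these levels bear on that of Per1 was not tested.

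**Figure D5:**
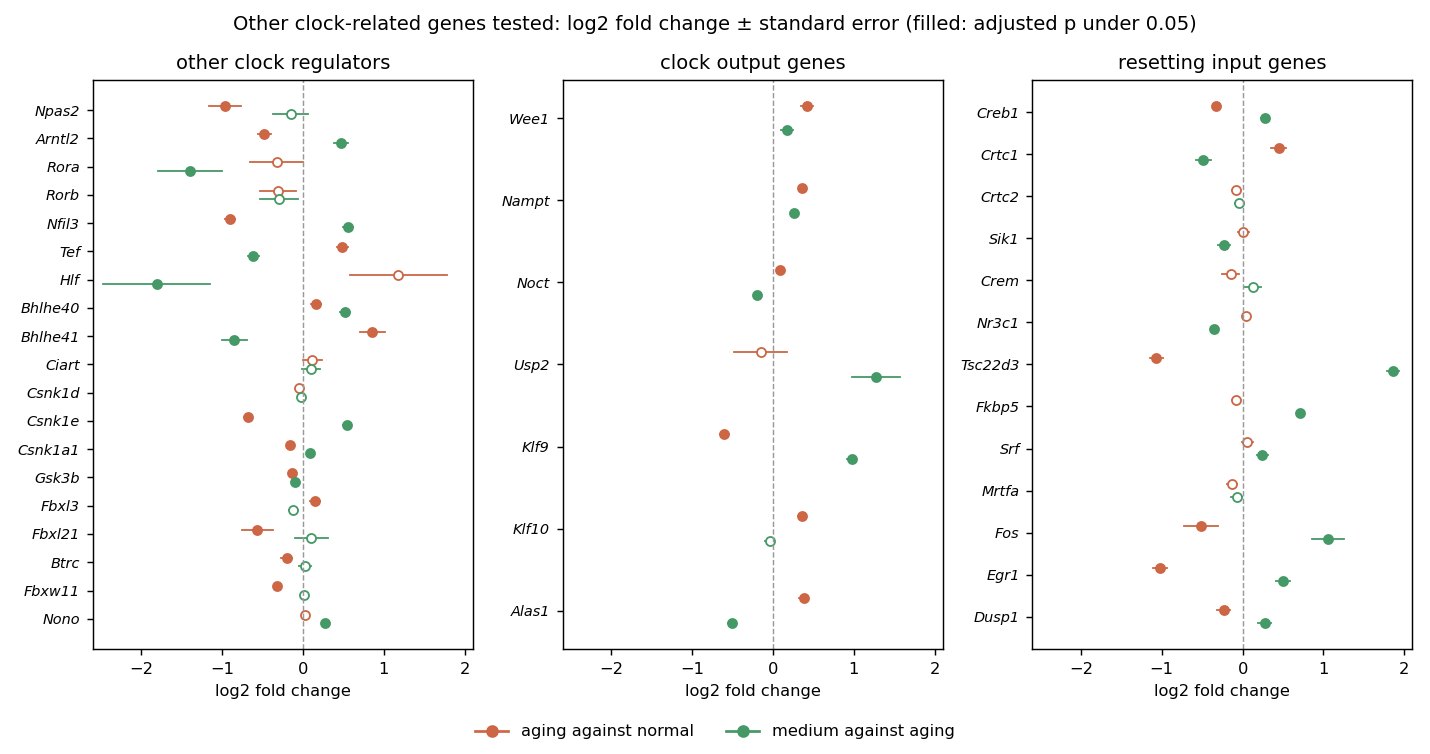
Log2 fold changes with standard errors of the tested genes of the 3 further lists, with aging against normal RGCs in 1 colour and the medium against aging RGCs in the other, filled where the adjusted p was under 0.05. Tsc22d3 lay at -1.07 and 1.86, Klf9 at -0.60 and 0.98, and Npas2 at -0.96 for aging against normal RGCs.

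The 5 genes whose log2 CPM followed that of Nr1d2 most closely over the 9 libraries, among 10809 genes with a mean log2 CPM of at least 1, were Rasgrp3 (Pearson r 0.993), Septin6 (0.992), Sgms2 (0.992), Cpe (0.991) and Enpp2 (0.991). Rasgrp3 averaged 15.3 CPM in normal, 6.89 CPM in aging and 0.964 CPM in medium libraries, and Septin6 88.7, 74.3 and 45.9 CPM. In all, 323 genes had an r above 0.95 with Nr1d2. The 9 points fall into 3 groups and share library and depth with every gene, so these values describe the pattern and carry no test.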

How the data were processed

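RNA of 9 cultures, 3 per group by their labels, was sequenced from oligo(dT)-enriched mRNA. The authors deposited, per gene and library, an expected count (an estimated and unscaled read number) and an FPKM value, which divides by transcript length and depth. The submitters' processing notes name mm10, while the aligner, the counting program and its strand setting are not given in these sources. Expected counts were rounded, since 6.92% to 7.38% of a library's values carried decimals.

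Genes were filtered with filterByExpr and tested with edgeR 4.0.16 in R 4.3.3, with TMM factors (0.956 to 1.03), 1 mean per group over 9 libraries and 6 residual degrees of freedom. Standard errors and 95% intervals came from the F statistic and are not adjusted. The intervals use the total degrees of freedom of the test, which add to the residual ones those gained by sharing the estimate of the spread over genes. The counts of a library, at the totals given, set the precision, and intervals cover the spread between wells. The method was tested on simulated data. Coordinates were taken from GENCODE M21 on GRCm38, and promoter windows from RefSeq on GRCm38.p6.

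The 10 genes and the further lists were chosen with earlier results of these data known, and some genes of these lists are not reported here. Named beside the 10 genes were genes of the further lists called with a log2 fold change of 0.5 or more in size, genes a sentence needed (Tef and Nr3c1 among them), genes that overlap a clock gene, and the 5 genes most like Nr1d2, the gene with the widest range. Alternatives were DESeq2 1.42.0, no TMM factors, upper-quartile factors, the likelihood ratio test, 2 other filters, a fit of just the groups compared, a block for the replicate number, limma 3.58.1 on log2(FPKM + 1) and log2(FPKM + 0.1), a 2-fold threshold, each library left out in turn and a looser E-box.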

Additional observations from a re-analysis of the deposited data

How the results depend on the processing

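Each of the 30 log2 fold changes of the 10 clock genes was recomputed under 19 alternatives, and 21 kept their direction and their side of the threshold under all of them. The other 9 concern Per2, Cry2, Nr1d1, Nr1d2 and Dbp, and their changed calls are given above. The log2 fold change of Per2 for the medium against aging RGCs turned to -0.0301 without TMM factors, to -0.0153 on the log2(FPKM + 1) scale and to -0.0342 on the log2(FPKM + 0.1) scale, and it ran from -0.0796 to 0.152 with a library left out. That of Cry2 ran from -0.224 to 0.0797, the upper value without medium replicate 2. The number of clock genes called higher in aging than in normal RGCs was 2 in place of 1 by the likelihood ratio test, with no low-count filter and in the fit of only these groups, and 1 to 2 with a library left out (2 without normal replicate 3, aging replicate 1 or medium replicate 1). With a change of at least 2-fold required, 0 were higher and 0 lower in aging against normal RGCs, 1 and 1 with the medium against aging RGCs, and 0 and 1 with the medium against normal RGCs. With medium replicate 3 left out, 4 were higher and 4 lower than in aging RGCs, and 3 higher and 4 lower than in normal RGCs. Of 38 fold changes of other named genes, 6 lost their call under an alternative, and none of the 38 changed direction under any.

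In the further lists, the regulators called higher in aging against normal RGCs went from 4 to 2 with DESeq2, without TMM factors, and without normal replicate 3 or aging replicate 1 or 3, and to 1 on both FPKM scales. Those lower with the medium against aging RGCs went from 5 to 3 with DESeq2 or without aging replicate 3. The output genes lower with the medium against normal RGCs went from 2 to 1 with DESeq2, with no low-count filter, in the fit of only these groups, and without any 1 library but medium replicate 2. The resetting genes lower in aging RGCs went from 5 to 3 with DESeq2 or without normal replicate 1 or aging replicate 1 or 2, and on the FPKM scales those higher with the medium went from 7 to 4 against aging RGCs and those lower from 4 to 7 against normal RGCs. At 2-fold, at most 2 genes of a list were called in a direction.

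The looser E-box CANNTG was in at least 1 window of 6 clock genes, a count per gene, and in 72.3% of all windows. The deviations of same-numbered libraries correlated at -0.0368 to 0.0479, so no strong effect shared by a replicate number was seen. These values cannot show whether same-numbered wells were handled together. With the replicate number as a block, 1 clock gene was higher and 3 lower in aging against normal RGCs, 4 and 4 with the medium against aging RGCs, and 4 and 5 with the medium against normal RGCs, and no call of a clock gene changed. Without TMM factors the median log2 fold change over all genes was -0.11 for the medium against normal RGCs, against -0.01 with them. Depth limits Dbp, Per3, Per2 and Cry2 most, with 30 to 187 counts per library.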
